A study of Danio rerio with 30 samples.

Results

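The genes described here were 200 maternal transcripts of zebrafish embryos whose recovery in poly(A)-selected libraries dropped most, relative to total RNA, in the first 3 hours after fertilization. They were chosen on measured values, out of 35117 genes in the expression tables. Of these, 7074 had a mean of at least 20 TPM (length-normalised shares of all transcripts in a library) in the total RNA of the embryo at 0 and 1 hour post-fertilization (hpf), after genes of the mitochondrial genome were left out. For each gene poly(A) TPM was divided by Ribo-Zero TPM, with 0.1 added to both, and the log2 taken, and the 200 genes with the lowest change from 0 to 3 hpf were kept. The other 6874 genes past the level minimum are called the other maternal genes.

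The embryos came from crosses of adult zebrafish and were collected in sets of 25. In the treated embryos, α-amanitin, an inhibitor of RNA polymerases II and III, was injected at the 1-cell stage (1 nl at 200 ng/µl), and poly(A)-selected RNA was sequenced at 12 times, every 0.5 h from 2 to 7.5 hpf. Untreated wild-type embryos were sequenced every hour from 0 to 8 hpf, once after poly(A) selection (9 libraries) and once after removal of ribosomal RNA with Ribo-Zero (9 libraries). Each condition had 1 library, so 30 libraries carried no replicates, and the error of every test below comes from libraries of neighbouring hours. Since TPM are shares, each value is relative to all other RNA in it. Whole embryos were pooled, so fewer cells with a transcript and less transcript per cell cannot be told apart.

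An egg carries mRNA made by the mother, and the embryo runs on this stock until its own genome is switched on. With transcription silent, the length of the poly(A) tail is a main control of which stored mRNAs are translated. Cytoplasmic poly(A) polymerases lengthen tails, deadenylases shorten them, and a message that has lost its tail may persist for hours before it is destroyed. In *Xenopus*, a class of mRNAs that includes the one for the kinesin Eg5 is polyadenylated in the egg and deadenylated after fertilization. Poly(A) selection mainly recovers transcripts whose tail is long enough to be bound, while Ribo-Zero libraries hold a transcript with or without a tail.

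In wild-type embryos most of the 200 genes began with strong poly(A) capture relative to total RNA. Their share of the poly(A) libraries then fell far more than their share of total RNA (see the plot of the ratio by hour). Their median poly(A) level was 169.8, 119.8, 41.1 and 23.4 TPM at 0, 1, 2 and 3 hpf. Their median Ribo-Zero level over the same hours was 64.8, 57.9, 60.0 and 52.8 TPM. It was lower at 3 than at 0 hpf for 191 of the 200 genes and for 6182 of all 7074. The median log2 change in Ribo-Zero was −0.31 in the 200 genes and −0.15 in the 7074. In poly(A) it was −2.80 in the 200 genes and 1.22 in the 7074. These are shares, which also fall when other transcripts gain poly(A) capture. How much of the fall was lost tailed RNA therefore cannot be told. The 200 genes together made up 7.03% of all poly(A) TPM at 0 hpf and 1.00% at 3 hpf, against 2.14% and 1.73% of all Ribo-Zero TPM.

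The median ratio (log2) of the 200 genes at 0, 1, 2 and 3 hpf was 1.52, 1.05, −0.42 and −1.32. The other maternal genes ran the opposite way, with medians of −1.65, −0.97, 0.05 and 0.20 in the same hours. The change from 0 to 3 hpf had a median of −2.45 in the 200 genes (quartiles −3.15 and −1.99) and 1.45 in the other maternal genes (quartiles 0.21 and 2.29). These values chose the genes and are given as a description, with no test.

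**Figure D1:**
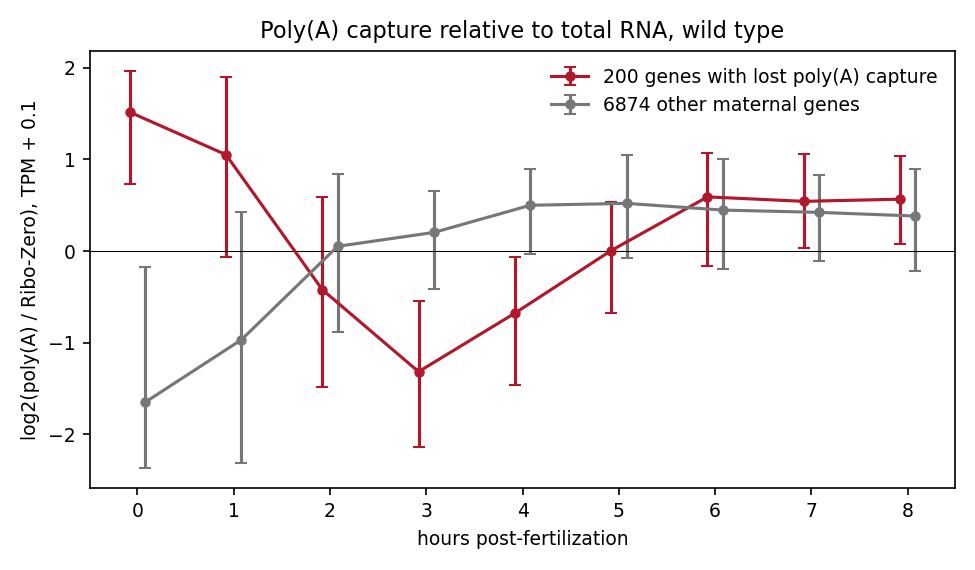
Median log2 of poly(A) TPM divided by Ribo-Zero TPM (0.1 added to each) against hours post-fertilization in wild-type embryos, for the 200 genes with lost poly(A) capture (red) and the 6874 other maternal genes (grey). Points are medians over genes and bars run from the lower to the upper quartile over genes, not over replicates. The red points go below 0 at 2 hpf, reach −1.32 at 3 hpf and meet the grey ones by 6 hpf, where the medians were 0.59 and 0.45.

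The largest median step lay between 1 and 2 hpf, the hours of the first cleavage divisions. It was −1.20, against −0.37 from 0 to 1 hpf and −0.79 from 2 to 3 hpf. The step from 1 to 2 hpf was the steepest for 108 of the 200 genes, while 60 genes had their steepest step from 2 to 3 hpf and 32 from 0 to 1 hpf. At 0 hpf, 181 of the 200 genes (90.5%) had a ratio above 0, against 22.8% of the other maternal genes. In shares of each library, the fall in ratio lay mostly on the poly(A) side. Poly(A) TPM was lower at 3 than at 0 hpf by at least 2-fold for 198 genes, against 702 of all 7074. Ribo-Zero TPM changed by less than 2-fold for 194 of the 200, and for 7024 of the 7074. These counts use libraries that chose the genes and are a description.

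The limit of 200 cut a smooth distribution. Just inside it lay *coil* (coilin, the scaffold of Cajal bodies) at −1.78, *papd4* (current symbol *tent2*, a cytoplasmic poly(A) polymerase) at −1.77 and *rab11ba* (a GTPase of recycling endosomes) at −1.76. Just outside lay *alms1* at −1.75, *plpp5* at −1.75 and *pif1* at −1.74. In all, 1627 of the 7074 genes had a change below 0 and 578 a change of −1 or lower.

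The choice depended on the pair of hours. With the change taken from 1 to 4 hpf, in libraries that did not rank the genes (the 1 hpf Ribo-Zero library did enter the level minimum), 98 of the 200 would have been kept, which is 49% of either list. That interval overlaps the hours that chose the genes. Over that interval 179 of the 200 genes (89.5%) had a ratio that was lower at 4 than at 1 hpf, against 1612 of 6874 other maternal genes (23.5%), and 98 were among the lowest 200. A level minimum of 5 or 50 TPM would have kept 149 or 121, and a pseudocount of 0.01 or 1 would have kept 199 or 195.

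The treated embryos gave a further set of poly(A) libraries. At 2 hpf the poly(A) level of the 200 genes in α-amanitin differed from wild type by a median log2 difference of 0.04, and at 3 hpf by 0.20, with 189 and 183 genes within 2-fold. Over all 7074 genes the medians were 0.02 and 0.26, with 6597 and 6738 within 2-fold, so the members were near the rest. When the 3 hpf poly(A) library from α-amanitin embryos was put in place of the wild-type one, the ratio was lower than at 0 hpf for all 200 genes, with a median of −2.32, and for 18.7% of the other maternal genes. That change still shared the 0 hpf libraries and the 3 hpf Ribo-Zero library with the choice of genes, so it is a description.

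Genes of the mitotic spindle were among the members with the lowest changes. The gene with the lowest change that had a wild-type poly(A) value above 0 at 3 hpf was *bub3*, a spindle checkpoint protein. Its poly(A) level was 686, 401, 27.1, 7.62 and 8.11 TPM from 0 to 4 hpf, then 30.9, 79.0, 142 and 165 TPM from 5 to 8 hpf. Its Ribo-Zero level was 121, 109, 101 and 91.4 TPM from 0 to 3 hpf, 58.2 TPM at 4 hpf, and 41.2, 34.4, 52.9 and 59.8 TPM from 5 to 8 hpf. The change in ratio from 0 to 3 hpf was −6.08. At 3 hpf the poly(A) share of *bub3* was almost gone while most of its Ribo-Zero share was still present.

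*cenpe*, the kinesin that tethers kinetochores to microtubules, had the same shape. Its poly(A) level from 0 to 8 hpf was 724, 400.4, 59.9, 28.1, 22.3, 34.5, 86.6, 204 and 257 TPM. Its Ribo-Zero level was 284, 222, 262, 253, 201, 121, 77.9, 126 and 169 TPM. At 3 hpf the poly(A) level was thus far below that of 0 hpf and the total RNA close to it.

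*kif11*, which encodes the motor that pushes spindle poles apart and is the zebrafish counterpart of Eg5, was among the 5 most abundant members. Its poly(A) level from 0 to 8 hpf was 572, 274, 67.0, 43.8, 45.0, 79.4, 161, 289 and 294 TPM, and its Ribo-Zero level was 429, 401, 379, 327, 184, 92.4, 107, 203 and 216 TPM. The Aurora kinase gene *aurkb* went through 684, 475, 105, 48.8, 64.5, 85.1, 121, 159 and 167 poly(A) TPM. Each of these genes reached its lowest poly(A) level at 3 or 4 hpf and was higher again by 8 hpf, as the plots of single genes show.

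**Figure D2:**
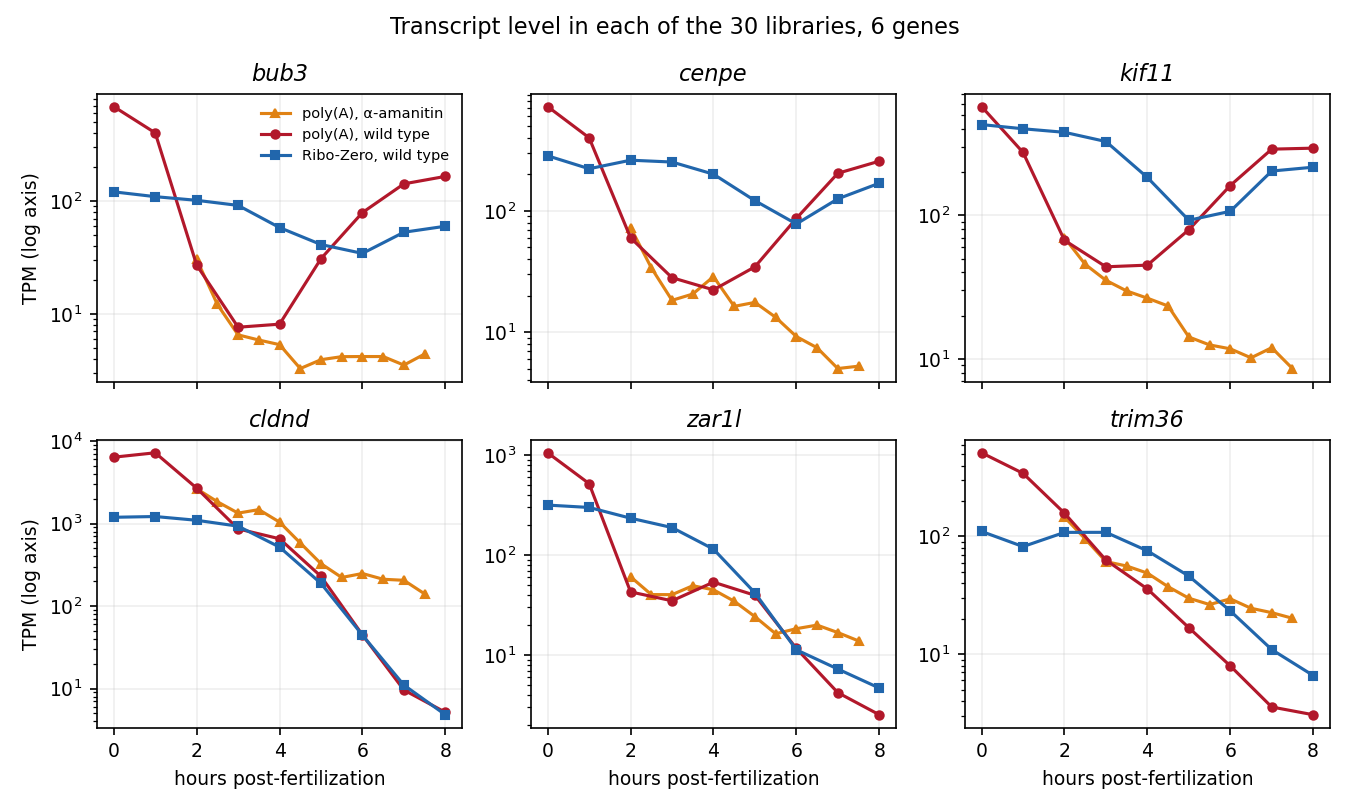
TPM on a log axis against hours post-fertilization for 6 of the 200 genes, each point 1 library: α-amanitin poly(A) (orange triangles), wild-type poly(A) (red circles) and wild-type Ribo-Zero (blue squares). In *bub3*, *cenpe* and *kif11* the wild-type poly(A) level came back after 4 hpf and the α-amanitin level did not. In *cldnd*, *zar1l* and *trim36* wild-type poly(A) and Ribo-Zero levels both went down after 4 hpf, to 5.16, 2.53 and 3.06 poly(A) TPM at 8 hpf.

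Of 152 maternal genes on a list of mitosis genes, 22 were members, so the list held 11% of the members and 2.15% of the 7074 genes. That list was written after the members had been seen, and its count is a description. It included the chromosomal passenger genes *birc5a*, *birc5b* and *cdca9*, the ubiquitin-conjugating enzyme gene *ube2c* and the subunit genes *anapc13* and *anapc15* of the anaphase-promoting complex, the centrosome genes *stil*, *cep120*, *nin* and *pcnt*, and the spindle genes *tacc3* and *kif4*. Reads from *birc5a* and *birc5b*, which are close paralogs, could have been split between them.

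On the lists drawn up earlier, 5 of 83 genes for kinesins, tubulins and microtubule proteins were members. They were *cenpe*, *kif11*, *kif15* (−2.65), *cep120* (−2.31) and *kif4*. A list of 70 cyclin and cell cycle kinase genes, which also took in other cell cycle genes, held 3. They were the kinase gene *aurkb* (−3.51), the checkpoint gene *bub3* and the helicase gene *cdc45* (−3.10). The median change over all genes on these lists was 0.79 and 0.54, so most genes on them gained poly(A) capture relative to total RNA. Both medians were below that of all 7074 genes, 1.41, and the median of the mitosis list was 0.06.

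Of 43 genes on the earlier DNA replication list 2 were members, *gins2* (−3.66) and *orc1* (−1.84) of the origin recognition complex. *gins2* and *cdc45*, which was on the cell cycle list, encode parts of the replicative helicase. The median change over the 43 genes was 0.68. The poly(A) level of *gins2* from 0 to 3 hpf was 398, 301, 72.1 and 23.9 TPM, with Ribo-Zero levels of 73.2, 71.2, 57.9 and 55.7 TPM. A list of replication and repair genes, again written after the members were seen, held 13 members among 132 maternal genes, including *fancd2*, *ube2t* and *traip*. Its median change was 0.77, so most genes on both lists gained poly(A) capture relative to total RNA.

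The 5 most abundant members were *cldnd*, CR790368.1, *thy1*, *org* and *kif11*. *cldnd*, a claudin of the egg and early embryo, had the highest total RNA level of the 200. Its poly(A) level from 0 to 8 hpf was 6395, 7231, 2696, 864, 656, 229.5, 44.8, 9.61 and 5.16 TPM. Its Ribo-Zero level was 1194, 1220.0, 1098, 932, 519.9, 189, 44.5, 11.03 and 4.82 TPM. From 3 hpf on the levels in the 2 kinds of library lay close to each other, and the RNA was nearly cleared by 8 hpf.

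*org*, an oogenesis-related gene, had 1801, 1907, 536, 119.6 and 103 poly(A) TPM from 0 to 4 hpf and 413, 426, 367, 292 and 128 Ribo-Zero TPM. *zar1l*, a relative of the egg RNA-binding protein gene *zar1*, had 1056, 519, 42.8, 34.9 and 53.6 poly(A) TPM and 317, 299.7, 234, 189 and 115 Ribo-Zero TPM. In *zar1l* most of the loss lay before 2 hpf, and in *org* most of it lay between 1 and 3 hpf. With *cldnd* and the centrosome gene *stil* (−2.68), these made 4 members on a list of 33 egg factor genes, whose median change was 0.02.

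*thy1*, which encodes a surface glycoprotein, had 3766 and 806 poly(A) TPM at 0 and 3 hpf, and the clone-named gene CR790368.1 had 4824 and 293 poly(A) TPM. For CR790368.1 the Ribo-Zero level also went down, to 377 TPM at 3 hpf against 936 TPM at 0 hpf, so part of its poly(A) loss went with loss of RNA. In *thy1* the Ribo-Zero level was 494 TPM at 3 hpf against 606 TPM at 0 hpf.

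Among the 10 members with the lowest change, *rnf7*, the RING subunit of cullin ubiquitin ligases, went through 331, 129.5, 21.4 and 9.58 poly(A) TPM from 0 to 3 hpf, against 60.8, 56.6, 54.0 and 45.4 Ribo-Zero TPM. *ssna1*, which encodes a microtubule-binding protein, had a change of −4.72, *alkbh4*, of a family of demethylases, −4.51, and *tm2d1* −4.36. The clone-named genes zgc:114123 (−5.30) and si:ch211-241j12.3 (−5.16) completed the group with BX248324.1 and U2, whose changes need a caution.

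U2 and BX248324.1 were listed at 0 TPM in wild-type poly(A) at 3 hpf, so their changes of −7.61 and −6.13 depend on the pseudocount. U2 is the spliceosomal RNA, which has no poly(A) tail. It had 10.5, 20.02, 1.15 and 0.00 poly(A) TPM from 0 to 3 hpf, against 28.7, 36.2, 62.4 and 53.0 Ribo-Zero TPM. Other structural RNAs, RNaseP_nuc, SCARNA13 and both loci named Metazoa_SRP, entered the list with poly(A) levels no higher than 2.66 TPM at 0 and 3 hpf, so their change in ratio came from values near the floor or from Ribo-Zero. In RNaseP_nuc the Ribo-Zero level was 35.3 TPM at 3 hpf against 13.9 TPM at 0 hpf.

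Other roles were represented by a few genes each. Of 69 respiratory chain genes 4 were members, the ATP synthase genes *atp5o* (−3.16) and *atp5l* (−2.83) and the complex I genes *ndufa5* (−2.93) and *ndufs6* (−2.04). The 200 genes were 2.83% of the 7074, against which the counts on each list should be read. Of 52 deadenylation and decay genes, *pan3*, a subunit of a poly(A) nuclease (−2.32), and *zfp36l2*, which binds AU-rich elements (−2.01), were members. *papd4* was the 1 member among 37 genes for poly(A)-binding, polyadenylation and masking proteins. The median change over these 2 lists was 1.39 and 1.10, so most of their genes gained poly(A) capture. The ubiquitin genes *rnf7*, *ube2t* (−3.05), *trim36* (−3.00) and *ube2c* (−3.00) headed the 6 members of a list of 196.

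Other lists held 2 members each. Of 84 solute carrier genes they were *slc29a2* (−3.09) and *slc38a6* (−2.82), and of 55 chaperone genes *dnajb12b* (−2.13) and *dnajc9* (−1.98). Of 22 junction genes they were *tjp2a* (−3.29) and *cldnd*, and of 90 zinc finger genes *znf451* (−2.09) and *zfp36l2*. The median change over these lists was 1.64, 1.78, −0.24 and 1.91. Most solute carrier, chaperone and zinc finger genes thus gained poly(A) capture relative to total RNA. Classes with no member, where the overall share of 2.83% would itself give few, included 80 cytoplasmic ribosomal protein genes (median change −0.71), 74 histone genes (0.06), 64 translation factor genes (1.37), 52 mitochondrial ribosomal protein genes (1.65) and 42 proteasome genes (1.604). By symbol, 188 of the 200 genes matched the RefSeq gene table (assembly GRCz12tu) and 186 of these were protein coding. Among the other maternal genes 6480 of 6500 matched genes were protein coding.

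The first test set the ratio after the hours that chose the genes against the ratio at 1 and 2 hpf, which lie within them. limma compared the ratio at 4, 5 and 6 hpf with that at 1 and 2 hpf, with p-values adjusted over all 15078 genes tested. These libraries did not rank the genes, but the 1 hpf Ribo-Zero library entered the level minimum. The hours 1 and 2 hpf also lie on the fall from 0 to 3 hpf that chose the genes. The comparison is therefore not independent of the choice, and without 1 hpf no gene was called lower. Of the 200 genes 28 were called lower (14%) and 6 higher (3%), where 2.57% of all genes tested were called lower and 23.6% higher. The median difference was −0.43 in the 200 genes, 0.75 in the other maternal genes and 0.91 in all genes tested.

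*trim36*, a ubiquitin ligase gene whose *Xenopus* counterpart acts in cortical rotation of the egg, had the lowest called difference. Its log2 ratio is built from 343, 157, 35.8, 16.8 and 7.95 poly(A) TPM at 1, 2, 4, 5 and 6 hpf, over 82.0, 108, 75.4, 46.05 and 23.3 Ribo-Zero TPM. The difference was −2.66 ± 0.61 (SE, limma adjusted p = 0.0176). *itm2cb*, which encodes an integral membrane protein (−2.47 ± 0.55, adjusted p = 0.0171), and *camsap1a*, whose product caps microtubule minus ends (−2.43 ± 0.53, adjusted p = 0.0161), followed.

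Leaving out clone-named genes, the 3 highest called differences were in *ndufa5* (3.11 ± 0.87, limma adjusted p = 0.0297), *ndufs6* (2.50 ± 0.79, adjusted p = 0.0438) and *papd4* (2.22 ± 0.66, adjusted p = 0.0361). *papd4* lost its poly(A) capture early, with 129 poly(A) TPM at 0 hpf, 29.6 at 1 hpf and 20.7 at 2 hpf, and had 23.5, 34.6 and 42.7 TPM at 4, 5 and 6 hpf with Ribo-Zero levels of 35.8, 21.05 and 21.2 TPM. These 3 calls were the least stable of the named ones, kept under 4, 4 and 3 of 12 alternatives.

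This comparison rested on few libraries. The number called lower was 0 when 1 hpf was left out, 73 for 2 hpf, 3 for 4 hpf and 0 for 6 hpf, and at an unadjusted p under 0.05 the lower counts without 1 or 6 hpf were 21 and 53. With libraries scaled by median of ratios, 38 genes were called lower and 0 higher (1 at an unadjusted p under 0.05). Over all 15078 genes tested, that scaling gave 1496 lower and 1720 higher. The lower share of all calls moved to 46.5% from 9.79%, and the median of all genes to 0.01 from 0.91.

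The second test followed the poly(A) level when the embryo could not transcribe. In the 12 α-amanitin libraries the poly(A) level of most of the 200 genes fell with time. The libraries at 2, 2.5 and 3 hpf lie within the hours that chose the genes. The slope is therefore not fully independent of the choice. limma called a negative slope of log2 TPM on time for 164 of the 196 genes tested (83.7%) and a positive slope for 7 (3.57%), where 37.5% of all 13977 genes tested were called lower and 23.7% higher. Of the other maternal genes 36.4% were called lower and 30.8% higher. The median slope was −0.44 log2 per hour in the 200 genes and −0.01 in the other maternal genes. Over 4.5 to 7.5 hpf alone the shares called lower were closer, 50.5% of the members tested and 38.6% of the other maternal genes.

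**Figure D3:**
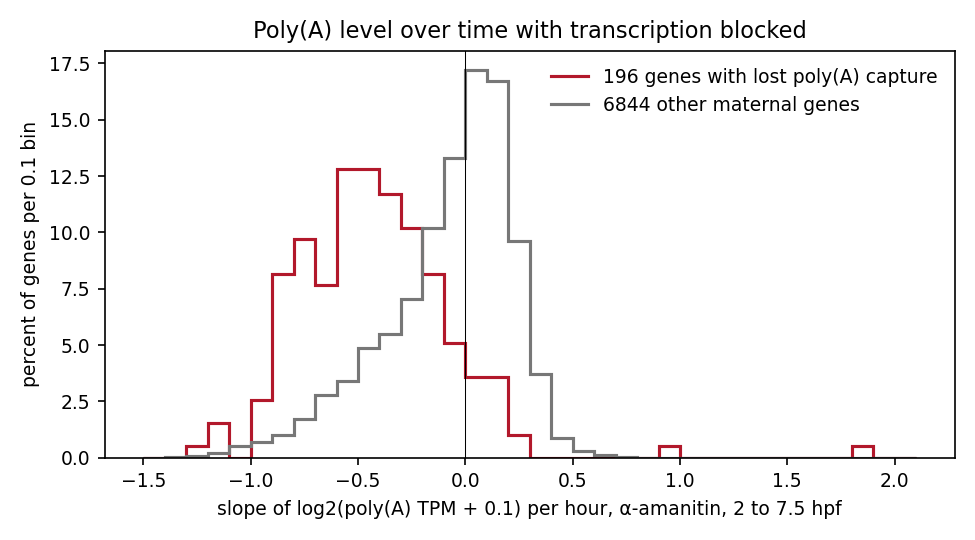
Slope of log2(poly(A) TPM + 0.1) per hour over the 12 α-amanitin libraries (x axis, bins of 0.1) against the percent of genes in each bin, for 196 genes with lost poly(A) capture (red) and 6844 other maternal genes (grey). The red curve lies to the left of the grey one, with medians of −0.44 and −0.01.

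Among genes that are not clone-named, the steepest called slope belonged to *traip*, a replication-fork ubiquitin ligase gene. From 2 to 7.5 hpf in α-amanitin it had 57.9, 38.8, 28.1, 25.1, 17.4, 8.43, 3.38, 1.94, 2.13, 1.25, 1.02 and 1.21 TPM, a slope of −1.15 ± 0.08 log2 per hour (SE, limma adjusted p = 1.45e-07). *gnpda1*, a hexosamine deaminase gene (−0.96 ± 0.07, adjusted p = 2.46e-07), and *flcn*, the folliculin gene (−0.95 ± 0.05, adjusted p = 3.12e-08), came next, and all 3 kept the call under 19 of 19 alternatives.

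All 22 members of the mitosis list were called lower in α-amanitin (21 with median-of-ratios scaling), with a median slope of −0.53 log2 per hour. Of the 174 members not on that list 142 (81.6%) were called lower, so the mitotic members are not set apart from the rest by this count. Of 130 other maternal genes on the list 76 were called lower and 27 higher. *bub3* had 30.4 TPM at 2 hpf, 12.1 at 2.5 hpf and 6.52 at 3 hpf, then stayed between 3.28 and 5.87 TPM. *cenpe* had 72.8 TPM at 2 hpf and 5.23 TPM at 7.5 hpf, and *kif11* 69.9 and 8.57 TPM. On the lists drawn up earlier, 5 of 5 members on the kinesin and microtubule list and 4 of 4 on the egg factor list were called lower. So were 83.7% of all members tested, and 44 of 78 and 17 of 29 other maternal genes on these 2 lists.

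A few genes went the other way. BX248324.1 had the highest slope, 1.82 ± 0.30 (limma adjusted p = 0.00015), after 5 libraries listed at 0 TPM, and its slope over 4.5 to 7.5 hpf alone, fitted after its values were seen, was 0.06 (adjusted p = 0.87). RNaseP_nuc, the RNA of ribonuclease P, had a slope of 0.96 ± 0.22 (limma adjusted p = 0.00198). Without the 2 hpf library that slope was 0.54 (adjusted p = 0.00057), and it was not called over 2 to 4 hpf (2.50, adjusted p = 0.0819) or over 4.5 to 7.5 hpf (0.32, adjusted p = 0.179). *palld*, which encodes the actin-binding protein palladin, had 17.3, 12.3, 12.2 and 14.1 TPM from 2 to 3.5 hpf and between 22.4 and 35.0 TPM from 4 hpf on, a slope of 0.30 ± 0.05 (adjusted p = 8.2e-05). *klhl2*, an adaptor of cullin ubiquitin ligases, had a slope of 0.27 ± 0.06 (adjusted p = 0.00141). Over 2 to 4 hpf alone the slope was 0.19 in *palld* (adjusted p = 0.532) and −0.09 in *klhl2* (adjusted p = 0.824).

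The earlier and the later hours were also fitted apart, and only the later ones lie wholly after the hours that chose the genes. Over 2 to 4 hpf in α-amanitin 82 of 196 genes tested (41.8%) were called lower, where 2.37% of all genes and 2.67% of the other maternal genes were, and no gene of the 200 was called higher by limma (5 at an unadjusted p under 0.05). Over 4.5 to 7.5 hpf 98 of 194 (50.5%) were called lower, where 35% of all genes and 38.6% of the other maternal genes were. The median slope of the 200 genes was −0.45 log2 per hour in the earlier window and −0.28 in the later one, against 0.09 and −0.08 in the other maternal genes.

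Scaling by median of ratios left 154 genes called lower and 11 higher over 2 to 7.5 hpf, and moved the lower share of calls over all genes to 51.8% from 61.3%. Of all 13977 genes tested, 4835 were then lower and 4491 higher. Without the 2 hpf library 155 were called lower and 12 higher.

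The third comparison set the poly(A) level in α-amanitin embryos against that in wild type at 4, 5, 6 and 7 hpf. Only the treated embryos were injected, and the series held no mock-injected set. Injection, library series and blocked transcription therefore cannot be told apart. In α-amanitin 42 of 199 were called lower (21.1%) and 36 higher (18.1%), near the shares over all 16028 genes tested, of which 21.8% were called lower and 23.8% higher. Among the other maternal genes 8.26% were called lower and 32.5% higher. The median difference was −0.02 log2 in the 200 genes, 0.61 in the other maternal genes and 0.40 in all genes tested.

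U2 had the lowest called difference, with 0.00, 0.00, 0.08 and 2.19 TPM in α-amanitin at 4, 5, 6 and 7 hpf, against 216, 484, 695 and 199.8 TPM in wild type. The fitted difference was −10.42 ± 0.83 (limma adjusted p = 5.53e-05), which depends on the pseudocount. U2 has no poly(A) tail, and why it was recovered in the wild-type poly(A) libraries was not tested. *ndufa5* had 2.13, 2.00, 0.37 and 2.05 TPM in α-amanitin and 6.07, 27.0, 59.9 and 74.1 TPM in wild type (−4.32 ± 0.78, adjusted p = 0.00429), so the groups did not overlap. *trdmt1*, a tRNA methyltransferase gene, was lower by the same test (−3.67 ± 0.84, adjusted p = 0.012).

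Of the mitotic members 14 of 22 were lower in α-amanitin and 3 higher (14 and 1 with median-of-ratios scaling). Of 130 other maternal genes on the list, which was written after the members were seen, 13 were called lower and 32 higher. With hour as a factor 4 of the 22 (18.2%) were lower and 0 higher, where 13.1% of all genes tested were lower. *bub3* had 5.34, 3.93, 4.19 and 3.52 TPM in α-amanitin against 8.11, 30.9, 79.0 and 142 TPM in wild type (−3.26 ± 0.65, limma adjusted p = 0.00667). *kif11* had 26.5, 14.2, 11.8 and 11.97 TPM in α-amanitin against 45.0, 79.4, 161 and 289 TPM in wild type (−2.90 ± 0.54, adjusted p = 0.00492). For both genes the groups did not overlap, and the gap widened from 4 to 7 hpf.

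Other genes were higher in α-amanitin than in wild type at these hours. *birc5b*, a survivin gene, had 82.6, 33.2, 25.8 and 32.8 TPM in α-amanitin at 4, 5, 6 and 7 hpf, against 44.6, 18.8, 3.39 and 0.58 TPM in wild type (2.55 ± 0.70, limma adjusted p = 0.0221). *srgap1b* had 12.2, 11, 11.2 and 9.28 TPM in α-amanitin against 10.98, 4.53, 0.74 and 0.19 TPM in wild type (2.55 ± 0.72, adjusted p = 0.0241). Both genes were higher in α-amanitin at each of the 4 hours, but the ranges of the groups overlapped, and with the treatments paired by hour (hour as a factor) both calls were lost (adjusted p = 0.0729 for *birc5b* and 0.0769 for *srgap1b*). *camsap1a* followed at 2.45 ± 0.54 (adjusted p = 0.01, and 0.0471 with hour as a factor). In α-amanitin itself all 3 were called lower with time, with slopes of −0.45 (*birc5b*, limma adjusted p = 6.47e-05), −0.13 (*srgap1b*, 0.00518) and −0.24 log2 per hour (*camsap1a*, 0.000241).

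These counts depended on the fit and the libraries. With hour as a factor 13 genes were called lower (6.53%) and 5 higher (2.51%), where 13.1% of all genes tested were called lower and 3.94% higher, and *bub3* and *kif11* kept their calls (adjusted p = 0.0356 and 0.0292). The lower and higher counts were 67 and 52 without 4 hpf, 5 and 6 without 5 hpf, 3 and 0 without 6 hpf (18 higher at an unadjusted p under 0.05), and 4 and 3 without 7 hpf. With median-of-ratios scaling they were 60 and 16, the lower share of calls over all genes was 73% in place of 47.8%, and the median of all genes moved to −0.22 from 0.40. Of all 16028 genes tested, 4370 were then lower and 1616 higher.

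The last comparison followed the genes in wild-type embryos from 4 to 8 hpf. After 3 hpf the ratio of the 200 genes came back, with medians of −0.68, 0.01, 0.59, 0.54 and 0.57 from 4 to 8 hpf. It was higher at 6 than at 3 hpf for 185 genes (92.5%), against 60.0% of the other maternal genes, in a step that shares the 3 hpf libraries with the choice of genes. For 161 of the 200 (80.5%) the ratio at 6 hpf was below that at 0 hpf, against 1315 of the other maternal genes (19.1%), which is a description, since the 0 hpf libraries chose the genes. The later levels took different paths.

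In the poly(A) libraries limma called a falling level from 4 to 8 hpf for 62 of 198 genes (31.3%) and a rising level for 46 (23.2%), where 32.1% of all 16510 genes tested were called lower and 15.8% higher. The other maternal genes had 45.1% and 7.07%. In the Ribo-Zero libraries 84 of the 200 genes (42%) were called lower and 8 (4%) higher, where 34.7% of all 15642 genes tested were called lower and 18.1% higher, and of the other maternal genes 48.6% and 8.53%. The median slope of the 200 genes was −0.04 log2 per hour in poly(A) and −0.41 in Ribo-Zero.

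**Figure D4:**
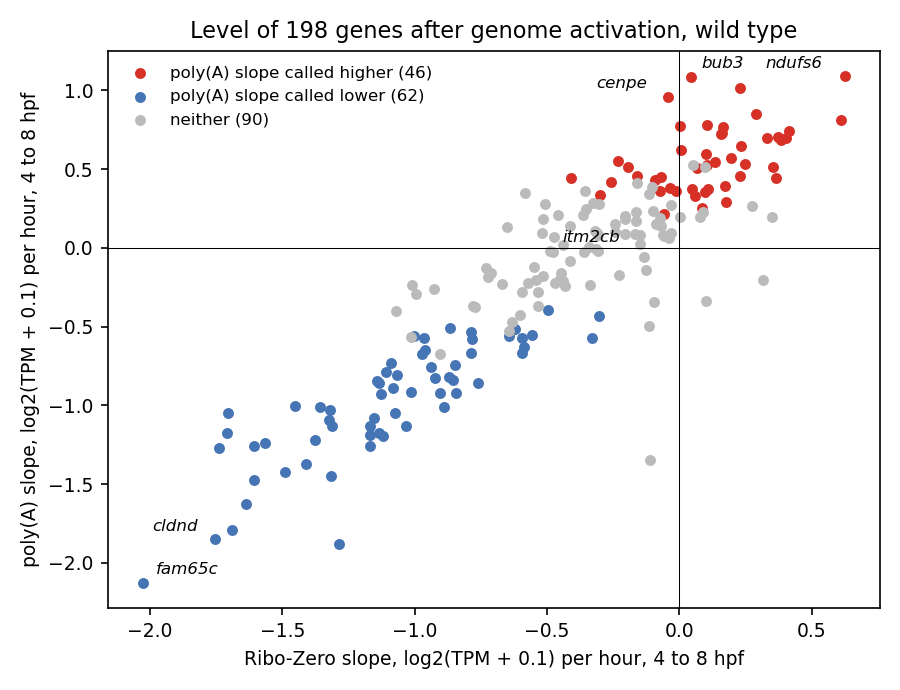
Slope per hour of log2(TPM + 0.1) from 4 to 8 hpf in wild-type Ribo-Zero libraries (x axis) and poly(A) libraries (y axis) for 198 of the 200 genes, each point 1 gene. Red points are the 46 genes whose poly(A) slope was called higher, blue points the 62 called lower and grey points the 90 called neither. Blue points lie at the lower left, where both kinds of library lost the RNA, and most red points lie near a Ribo-Zero slope of 0.

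The genes whose poly(A) level fell also lost total RNA. Of the 62 genes with a falling poly(A) slope, 60 were called lower in Ribo-Zero and none higher. The steepest was *fam65c* (current symbol *ripor3*), with 30.9, 17.1, 1.89, 0.24 and 0.04 poly(A) TPM from 4 to 8 hpf and 76.7, 32.3, 4.44, 1.09 and 0.26 Ribo-Zero TPM. Its slopes were −2.12 ± 0.22 in poly(A) (limma adjusted p = 0.00349) and −2.02 ± 0.13 in Ribo-Zero (adjusted p = 0.00319). *cldnd* fell by 1.85 ± 0.13 log2 per hour in poly(A) (adjusted p = 0.00349) and by 1.75 ± 0.08 in Ribo-Zero (adjusted p = 0.00319). Its poly(A) level and its total RNA thus fell at similar rates.

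*birc5b* fell by 1.88 ± 0.19 log2 per hour in poly(A) (limma adjusted p = 0.00349), and *stx11a*, a syntaxin gene of membrane fusion, by 1.64 ± 0.11 in Ribo-Zero (adjusted p = 0.00319). Of the 4 members on the egg factor list, *cldnd*, *org* and *zar1l* fell in both kinds of library, and the centrosome gene *stil* was called in neither.

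Of the 46 genes with a rising poly(A) slope, 7 were called higher in Ribo-Zero, 39 neither and none lower. A straight line over these hours can miss a level that first fell and then rose. From 6 to 8 hpf the Ribo-Zero level was up by at least 2-fold in 16 of the 46 and up by any amount in 45, and it was up by at least 2-fold in 31 of the 200 genes and in 430 of the 6874 other maternal genes. *bub3* rose by 1.09 ± 0.15 log2 per hour in poly(A) (limma adjusted p = 0.00426), with a Ribo-Zero slope of 0.04 ± 0.10 (adjusted p = 0.738). *cenpe* rose by 0.96 ± 0.10 in poly(A) (adjusted p = 0.00349), with −0.04 ± 0.14 in Ribo-Zero (adjusted p = 0.808) over levels of 77.9 TPM at 6 hpf and 169 TPM at 8 hpf. A slope that missed the threshold does not show that total RNA was constant.

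*ndufs6* rose in both, by 1.09 ± 0.24 log2 per hour in poly(A) (limma adjusted p = 0.0115) and 0.62 ± 0.11 in Ribo-Zero (adjusted p = 0.00729). It had 5.38, 37.3, 108.7, 127 and 130.1 poly(A) TPM from 4 to 8 hpf and 9.65, 16.8, 32.2, 55.2 and 46.9 Ribo-Zero TPM. *snrpd2*, a core protein of spliceosomal snRNPs, had 59.3, 139, 343, 436 and 561 poly(A) TPM and 36.9, 43.7, 88.4, 154 and 164 Ribo-Zero TPM, with a Ribo-Zero slope of 0.61 ± 0.08 (adjusted p = 0.00414). *atg12*, whose product is an autophagy conjugate, rose by 1.01 ± 0.27 in poly(A) (adjusted p = 0.0213), and *pef1*, a calcium-binding protein gene, by 0.40 ± 0.14 in Ribo-Zero (adjusted p = 0.0499), a call kept under 4 of 10 alternatives.

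Mitosis genes, from the list written after the members were seen, made up 11 of the 46, 3 of the 62 and 11% of all members. The 11 included *bub3*, *cenpe*, *kif11*, *kif15*, *aurkb*, *ube2c* and *top2a*, and the 3 were *birc5b*, *cdca9* and *cep120*. Of 130 other maternal genes on the list 7 were called higher and 47 lower. With median-of-ratios scaling 16 of the 22 mitotic members were called higher in poly(A) and 2 lower. Over all 16510 genes tested, that scaling gave 4889 higher and 2426 lower. All 4 respiratory chain members were called higher in poly(A), also with that scaling, and of 65 other maternal genes on that list 25 were called higher and 8 lower. In the α-amanitin libraries 39 of the 46 genes (84.8%) and 55 of the 62 (88.7%) were called lower, close to the 83.7% of all members.

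**Figure D5:**
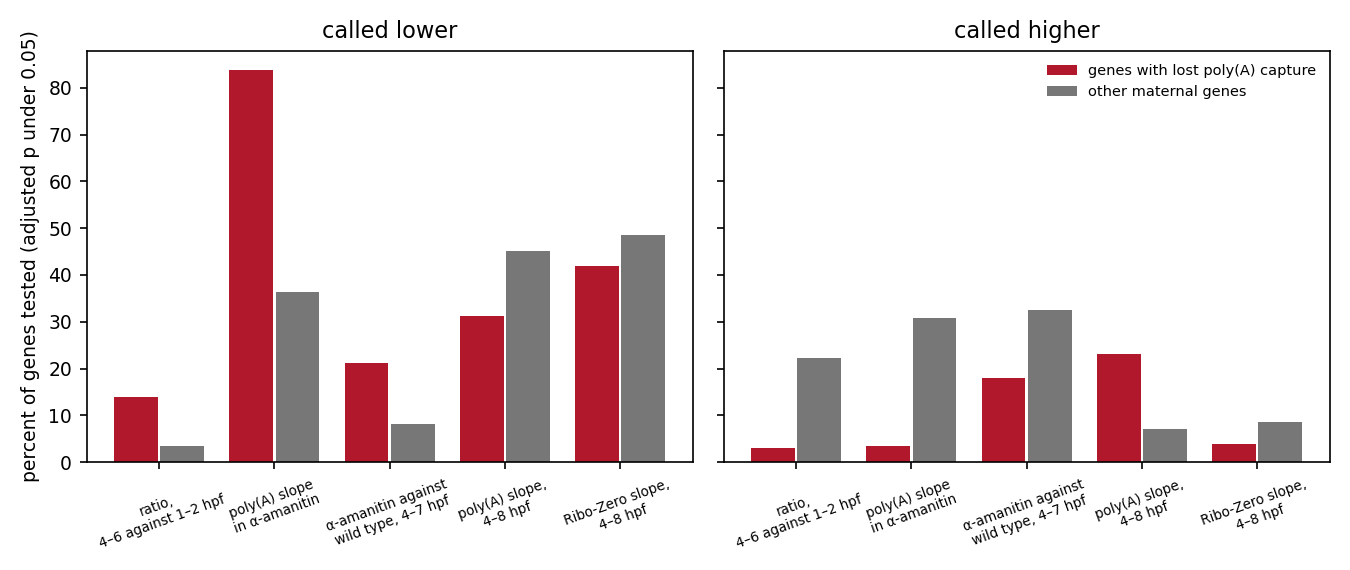
Percent of genes tested that limma called lower (left panel) or higher (right panel) at an adjusted p under 0.05 in each of the 5 comparisons, for the genes with lost poly(A) capture (red) and the other maternal genes (grey). The red bar is far above the grey one for a lower slope in α-amanitin (83.7% and 36.4%) and for a higher late poly(A) slope (23.2% and 7.07%). The α-amanitin slope includes hours that chose the genes, and over 4.5 to 7.5 hpf alone the shares were 50.5% and 38.6%. Of all genes tested 15.8% were called higher in the late poly(A) slope.

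Scaling mattered for the late slopes. With median of ratios 42 genes were called lower and 85 higher in poly(A), and 66 lower and 39 higher in Ribo-Zero. Over all genes tested, 2426 of 16510 were then lower and 4889 higher in poly(A). In Ribo-Zero 2703 of 15642 were lower and 5337 higher. The lower share of calls over all genes moved to 33.2% from 67.1% in poly(A) and to 33.6% from 65.8% in Ribo-Zero, and the medians of all genes to 0.15 from −0.19 and to 0.14 from −0.16. Without 4 hpf the poly(A) counts were 32 lower and 35 higher and the Ribo-Zero counts 50 and 19. The higher counts in poly(A) were 29 without 5 hpf and 19 without 7 hpf, and those in Ribo-Zero 3, 5, 2 and 2 without 5, 6, 7 and 8 hpf.

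Across the series, between 11919 and 16194 genes reached 1 TPM in a library, and the sequencing depth is unknown here. Egg markers were present at 0 hpf (*ccnb1* 4389 poly(A) and 1092 Ribo-Zero TPM, *buc* 93.2 and 838), while markers of follicle cells, blood and liver were at or below 2.16 TPM in every library looked at. The zygotic markers *tbxta*, *vox*, *tbx16*, *sox32*, *krt4* and *aplnrb* were at most 0.95 TPM in any α-amanitin library, against 28.2 to 2419 TPM in wild-type poly(A) at 8 hpf.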

How the data were processed

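RNA from pooled zebrafish embryos was sequenced in 30 libraries. The authors used bcl2fastq 2.18, STAR 2.7.3a and RSEM with the zebrafish build danRer11 and Ensembl 98 gene models, and deposited TPM per gene with 2 decimals. TPM sums to the same total in each library. Counts are not used here and depth is unknown, so no counting interval is given. Members of the group and the gene lists were chosen with earlier results of these data known, and the mitosis and the replication and repair lists after the members were seen.

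Values were tested as log2(TPM + 0.1) with limma 3.58.1 in R 4.3.3 (moderated fits with trend, two-sided, Benjamini-Hochberg over all genes tested, threshold 0.05), for genes with a mean of at least 1 TPM. Log2 differences understate the change of low genes. Hours stood in for replicates, so p-values measure the spread around a mean or a line in time. The code of the fits was tested on simulated data with independent errors, which does not test whether hours can stand in for replicates. Alternatives were pseudocounts of 0.01 and 1, no filter or 5 TPM, median-of-ratios scaling, other windows, hour as a factor, and each hour left out. The scaling factors came only from maternal genes. These had a mean Ribo-Zero level of at least 5 TPM at 0 and 1 hpf and were detected in every library fitted.

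Named genes were the 10 members with the lowest change, the 5 most abundant, up to 4 from each list with at least 2 members, the 3 lowest and 3 highest past the threshold in each fit, and 3 on either side of the limit. Clone-named genes were left out of the choices from lists and fits, except BX248324.1, named for its slope after it was seen. Other list members are named as examples chosen after their values were seen. Sequence features of the transcript ends were not analysed here. Figures were drawn with matplotlib.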

Additional observations from a re-analysis of the deposited data

How the results depend on the processing

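Each hour had 1 library per treatment, and reads per library are unknown, so nothing separates a library from its hour. Of the 30 named calls, U2, *flcn*, *gnpda1*, *traip*, *cldnd*, *fam65c*, *stx11a*, *snrpd2* and *bub3*, with *birc5b* in the late poly(A) slope and *ndufs6* in the late Ribo-Zero slope, kept their call under every alternative run. The only reversal was *klhl2* in α-amanitin, at −0.094 log2 per hour over 2 to 4 hpf. The cause of the differences below was not tested, beyond fewer libraries where a window was shortened.

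For the ratio at 4 to 6 against 1 and 2 hpf, 28 genes lower and 6 higher became 15 and 0 (8 higher at an unadjusted p under 0.05) with a pseudocount of 0.01, 0 and 0 (37 and 10) without a filter, and 0 and 0 (53 and 4) with 4 and 5 hpf as the late window. With 4 to 8 hpf 14 were higher, and with median-of-ratios scaling 0. Leaving out 1 hour gave 0 to 73 lower and 0 to 2 higher.

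For the α-amanitin slope, 164 lower and 7 higher became 82 and 0 over 2 to 4 hpf and 98 lower over 4.5 to 7.5 hpf, with 11 higher after scaling. Leaving out 1 hour gave 155 to 165 lower and 6 to 12 higher. For α-amanitin against wild type, 42 lower and 36 higher became 13 and 5 with hour as a factor, which pairs the treatments by hour, and 16 were higher after scaling. Leaving out 1 hour gave 3 to 67 lower and 0 to 52 higher.

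For the late Ribo-Zero slope, 8 higher became 3 without a filter and 39 after scaling, and leaving out 1 hour gave 50 to 110 lower and 2 to 19 higher. For the late poly(A) slope, 46 higher became 85 after scaling, and leaving out 1 hour gave 32 to 70 lower and 19 to 46 higher. Of the 200 genes, 98 were shared with the same choice made from 1 to 4 hpf and 121 with a minimum of 50 TPM.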
